A study of Mus musculus with 24 samples.

Results

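Upper-layer neuron identity genes were followed here through the neurogenic lineage of the mouse cortex. The set holds 9 genes of the 39017 in the count tables, chosen by name: Cux1, Cux2, Pou3f1, Pou3f2, Pou3f3, Rorb, Mdga1, Dok5 and Mef2c. Each symbol matched 1 Ensembl gene, and all 9 had enough reads to be tested in every comparison. RNA-seq was made from embryonic mouse cerebral cortex at stage E15.5, after sorting into 3 populations. The labels call the PAX6+ cells radial glia, the TBR2+ cells intermediate progenitors and the PAX6-TBR2- cells neurons. Eomes is the gene of the TBR2 protein. Both genotypes carried floxed alleles of Prdm16, which encodes a zinc finger regulator of transcription with a PR domain. The control libraries, titled WT, were Prdm16 flox/flox, so they were not free of engineered alleles. The knockout libraries, titled KO, were Emx1Ires-Cre; Prdm16flox/flox. Emx1-Cre is known to recombine in progenitors of the dorsal telencephalon and in their descendants, and not in cells that migrate in from elsewhere, such as interneurons. Each of the 6 groups had 4 libraries. The series calls them biological replicates, but embryos and litters are not named, so the tests below measure only how far these libraries spread, which may be technical.

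Excitatory neurons of the cortex are born in order, those of the deep layers first and those of the upper layers later, many of the latter through intermediate progenitors. Upper-layer neurons are known for connections within and between the hemispheres, and deep-layer neurons mostly for projections out of the cortex. The cut-like homeobox factors Cux1 and Cux2 are the best known markers of upper-layer identity. The POU-homeobox factors Pou3f1 (Oct6), Pou3f2 (Brn2) and Pou3f3 (Brn1) act in late progenitors and migrating neurons, where Pou3f2 and Pou3f3 are known to act in part redundantly. Rorb is an orphan nuclear receptor of the granular layer that receives thalamic input, and Mef2c a MADS-box factor of neuronal maturation. Mdga1 is a surface protein of the immunoglobulin superfamily held by a lipid anchor, and Dok5 a docking protein that acts below receptor tyrosine kinases.

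WT PAX6-TBR2- replicate 4 held 30.03 M counts and the other libraries from 4.95 to 12.6 M. Levels are given as CPM, the counts of a gene per M counts of its library, with library sizes scaled by TMM over all 24 libraries. The sort was checked on its own genes. Pax6 stood at 395 to 453 CPM in WT PAX6+ cells, 193 to 298 in WT TBR2+ and 18.8 to 43.4 in WT PAX6-TBR2-. Eomes stood at 61.2 to 109, 859 to 1013 and 21.1 to 64.4 CPM in the same order. In that order 8 intermediate progenitor markers summed to 362 to 518, 2322 to 2775 and 208 to 371 CPM. The 12 pan-neuronal markers summed to 400 to 483, 6325 to 7810 and 7592 to 8546 CPM. The TBR2+ libraries thus held neuronal RNA near the level of the PAX6-TBR2- libraries, and its part in the TBR2+ results was not tested. The targeted gene Prdm16 measured 252 ± 34.1 CPM in WT PAX6+ and 187 ± 27.1 in KO PAX6+ (SD, n = 4 each), with overlapping ranges. In WT and KO TBR2+ libraries it measured 55.6 ± 15.97 and 52.2 ± 7.94 CPM. The PAX6-TBR2- values were 25.2 ± 8.34 for WT and 18.9 ± 7.46 for KO. These counts cover the whole gene and do not resolve the floxed part. Some libraries stood apart. Markers of Cajal-Retzius cells summed to 285 CPM in WT PAX6+ replicate 3, against 30.9 to 49.7 in the other WT PAX6+ libraries. In PAX6-TBR2- cells of both genotypes, replicates 3 and 4 had higher sums of upper-layer and interneuron genes and a lower sum of deep-layer genes than replicates 1 and 2. There the 15 deep-layer markers summed to 4667, 4096, 3073 and 2824 CPM in WT replicates 1 to 4 and to 5061, 4973, 3340 and 3302 CPM in KO. The 8 interneuron markers summed to 347, 449, 723 and 951 CPM in WT and to 464, 672, 1109 and 1094 CPM in KO. The 9 upper-layer identity genes summed to 1371, 1235, 1965 and 1862 CPM in WT and to 1208, 1236, 1634 and 1579 CPM in KO. Single genes did not all follow their sum, as Rorb and Mef2c were highest in replicate 1 of both genotypes. The part of these library differences in the results for PAX6-TBR2- cells was not tested.

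**Figure D1:**
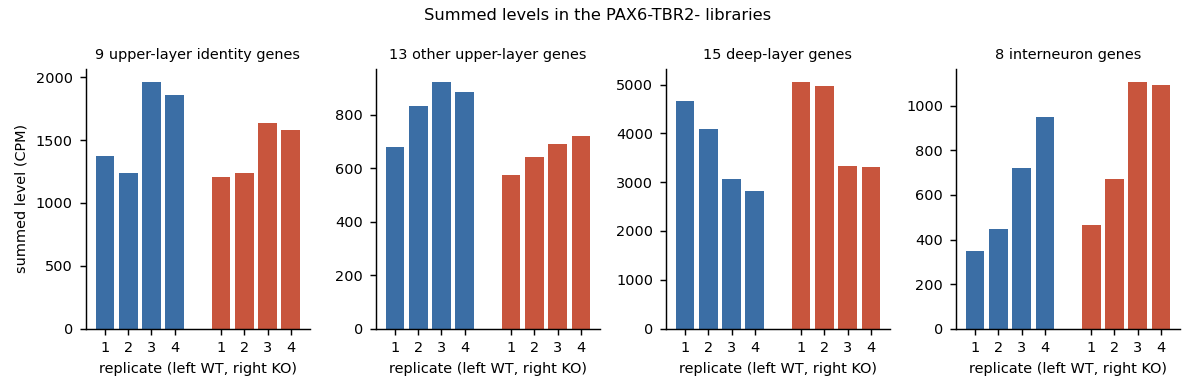
Summed levels (CPM) of 4 gene lists in each PAX6-TBR2- library, WT in blue and KO in red, with 1 bar per replicate. Replicates 3 and 4 are above replicates 1 and 2 in both genotypes for both upper-layer lists and the interneuron list, and below them for the deep-layer list, where WT runs from 2824 to 4667 CPM.

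The 3 POU genes belong to 1 family, and their coding sequences are shown to see how far reads of one could be mistaken for reads of another. Each is a single-exon gene: Pou3f1 (ENSMUSG00000090125; GRCm38 chromosome 4, 124656807 to 124660655, plus strand), Pou3f2 (ENSMUSG00000095139; chromosome 4, 22482780 to 22488366, minus strand) and Pou3f3 (ENSMUSG00000045515; chromosome 1, 42695768 to 42703176, plus strand). The 150 bases below come from their GENCODE M21 transcripts and run into the part that encodes the POU-specific domain, which together with the homeodomain binds DNA. Capitals mark the 61 positions at which the 3 sequences are not all alike.
Pou3f1: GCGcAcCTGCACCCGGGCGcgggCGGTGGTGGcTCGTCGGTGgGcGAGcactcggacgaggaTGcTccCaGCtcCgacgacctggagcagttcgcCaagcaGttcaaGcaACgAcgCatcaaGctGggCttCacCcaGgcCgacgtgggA
Pou3f2: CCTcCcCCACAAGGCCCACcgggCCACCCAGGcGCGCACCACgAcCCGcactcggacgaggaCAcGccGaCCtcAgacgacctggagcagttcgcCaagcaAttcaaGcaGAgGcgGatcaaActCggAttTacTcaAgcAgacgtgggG
Pou3f3: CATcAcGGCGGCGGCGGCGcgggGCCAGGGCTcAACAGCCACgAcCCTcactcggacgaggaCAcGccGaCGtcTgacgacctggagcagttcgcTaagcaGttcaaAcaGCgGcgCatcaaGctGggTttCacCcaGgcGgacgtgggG
The lines start at coding bases 676, 733 and 874. Pou3f1 and Pou3f2 were identical at 68% of these bases, Pou3f1 and Pou3f3 at 70% and Pou3f2 and Pou3f3 at 73.3%. The longest stretch shared by all 3 coding sequences was 20 bases, and the longest shared by a pair was 38 bases, in Pou3f1 and Pou3f2. No run of 50 coding bases was therefore common to any pair. Pou3f1 does overlap an annotated antisense gene, Gm2164, over 330 bases or 8.57% of its exon. Gm2164 held 67 counts over the 24 libraries against 3413 for Pou3f1. Of the rest of the 9 genes, only Cux1 shared exon bases with another gene, Gm16599 on the opposite strand (394 bases, 492 counts against 96285). Gm15637, AC122898.1 and Gm16758 overlap Cux2, Pou3f3 and Mdga1 without shared exon bases, at 257, 213 and 1012 counts. The strand setting of the counting is not given in the sources used here, so reads from the exon overlaps cannot be assigned to a strand.

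Knockout and control were compared within each population with edgeR's quasi-likelihood test, and a gene is described as having risen or fallen where its adjusted p over all genes tested was below 0.05. In TBR2+ cells 3 of the 9 genes fell (Pou3f1, Pou3f2 and Cux2) and 1 rose (Rorb), where 1.76% of the 12687 genes tested were called. In PAX6+ cells none fell and 2 rose (Mdga1 and Dok5), where 3.64% of the 14212 genes tested were called. In PAX6-TBR2- cells none of the 9 passed, where 0.00774% of the 12928 genes tested were called. The median log2 fold change of the 9 genes was -0.17 in TBR2+, 0.17 in PAX6+ and -0.08 in PAX6-TBR2-, and that of all genes tested was 0.00 in each population. Every library of 1 genotype lay outside the range of the other for 4 of the 9 genes in TBR2+, 2 in PAX6+ and 0 in PAX6-TBR2-. Such separation held for 6.77%, 8.44% and 4.16% of all genes tested. These are bulk measurements, in which fewer cells of a type and less RNA per cell cannot be told apart.

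**Figure D2:**
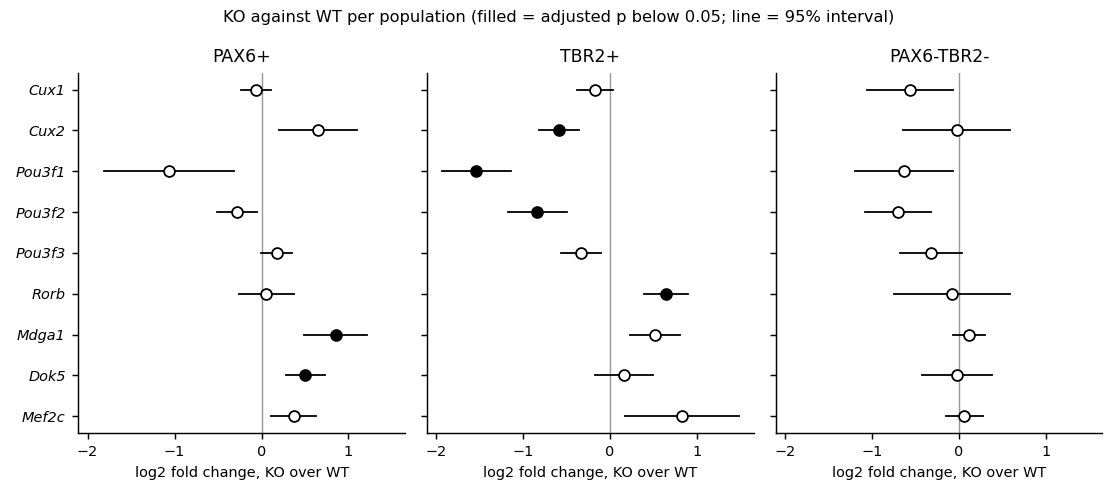
Log2 fold change, KO over WT, of each gene in the 3 populations, with its 95% interval; filled points have an adjusted p below 0.05. In TBR2+ cells Pou3f1 (-1.54), Pou3f2 (-0.84) and Cux2 (-0.59) lie below 0 and Rorb (0.64) above it, while Mdga1 (0.85) and Dok5 (0.50) are the filled points of PAX6+ cells.

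Among the POU factors, Pou3f1 fell by the largest fold in TBR2+ cells. In WT TBR2+ libraries it stood at 32.9, 30.2, 42.5 and 31.6 CPM in replicates 1 to 4, and in KO TBR2+ at 9.66, 17.7, 8.52 and 11.3 CPM. The highest KO library was below the lowest WT library, and the mean fell from 34.3 ± 5.601 to 11.8 ± 4.10 CPM (SD, n = 4 each). The log2 fold change was -1.54 (SE 0.20, adjusted p = 8.97e-04), a 2.91-fold lower level, and it passed in all 8 fits that left out 1 library, with adjusted p up to 0.00591. Pou3f1 was scarcely detected in PAX6+ cells, with 13 to 66 counts per WT library and 10 to 16 per KO library. There the levels were 2.27, 2.05, 4.14 and 1.32 CPM in WT and 1.03, 0.995, 1.32 and 1.36 CPM in KO, which overlapped. The log2 difference of -1.06 in PAX6+ had a 95% interval from -1.81 to -0.32 and did not pass (adjusted p = 0.199). In PAX6-TBR2- cells, WT libraries held 19.5, 23.8, 51.8 and 32.7 CPM and KO libraries 14.1, 15.04, 27.9 and 26.3 CPM. The ranges overlapped, and the log2 difference of -0.63 did not pass (adjusted p = 0.749).

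Pou3f2 was highest in TBR2+ cells of the controls and fell there in the knockout. WT TBR2+ replicates 1 to 4 held 188, 110, 233 and 149 CPM, and KO TBR2+ libraries 91.1, 105, 89.9 and 95.5 CPM. The groups did not overlap, although the lowest WT library and the highest KO library came close. The control spread (SD 52.7 CPM) was far wider than that of the knockout (6.71 CPM). Markers of Cajal-Retzius cells summed to 162, 507, 104 and 280 CPM in these WT libraries and to 352, 519, 350 and 394 CPM in KO. WT replicate 2, with the highest of the WT sums, had the lowest WT level of Pou3f2, and WT replicate 3, with the lowest sum, had the highest levels of Pou3f1, Pou3f2 and Cux2. In KO the order of the POU genes was the opposite. KO replicate 2, with the highest KO sum, had the highest KO levels of Pou3f1 and Pou3f2. KO replicate 3, with the lowest KO sum, had the lowest levels of both and the highest of Cux2. A link with these sums was not tested. The log2 fold change was -0.84 (SE 0.17, adjusted p = 0.0217), a 1.79-fold lower level. This call was lost in 4 of the 8 fits that left out 1 library (WT replicate 1 or 3, KO replicate 2 or 3), with adjusted p up to 0.0923. In PAX6+ cells, WT libraries held 82.0, 86.7, 95.0 and 90.7 CPM and KO libraries 63.9, 67.2, 69.4 and 89.1 CPM, so that KO replicate 4 alone lay within the WT range. The log2 difference there was -0.28 (adjusted p = 0.301). With replicate number as a block, for which the PAX6+ libraries met the pairing criterion (same-numbered WT and KO libraries deviated together from their group means), Pou3f2 was lower in KO PAX6+ (log2 fold change -0.30, adjusted p = 0.0342), and without KO PAX6+ replicate 4 it also passed (adjusted p = 0.036). In PAX6-TBR2- cells Pou3f2 measured 63.7, 59.0, 101 and 97.1 CPM in WT and 45.4, 36.1, 56.8 and 60.8 CPM in KO. Only KO replicate 4 there reached into the WT range. The log2 difference was -0.70 with an unadjusted p of 0.00297 and an adjusted p of 0.529.

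Pou3f3 had the highest level of the 3 per kilobase of exon in each WT population and did not pass between genotypes there in the test described above. It passed, as lower in KO, in TBR2+ without the filter on low counts and in PAX6-TBR2- with the replicate block. In TBR2+ it stood at 347, 295, 451 and 361 CPM in WT and at 282, 308, 255 and 314 CPM in KO. These ranges overlapped, and the log2 difference was -0.33 (95% interval -0.57 to -0.10, adjusted p = 0.24). In PAX6+ the 4 WT libraries lay within 205 to 210 CPM and the KO libraries ran from 208 to 259 CPM, a log2 difference of 0.17 (adjusted p = 0.495). In PAX6-TBR2- it ran from 160 to 264 CPM in WT and from 124 to 205 CPM in KO, a log2 difference of -0.32 (adjusted p = 0.804). Among the relatives of the POU genes, Pou3f4 did not pass in any population, with log2 differences of -0.69, -0.97 and -0.38 in PAX6+, TBR2+ and PAX6-TBR2- and mean levels of 5.02 CPM or less. Pou2f1 (Oct1), a widely expressed POU factor, fell in TBR2+ cells, with a log2 fold change of -0.50 (adjusted p = 0.0267); its level was 299 ± 41.6 CPM in WT libraries and 212 ± 13.4 in KO (SD, n = 4).

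**Figure D3:**
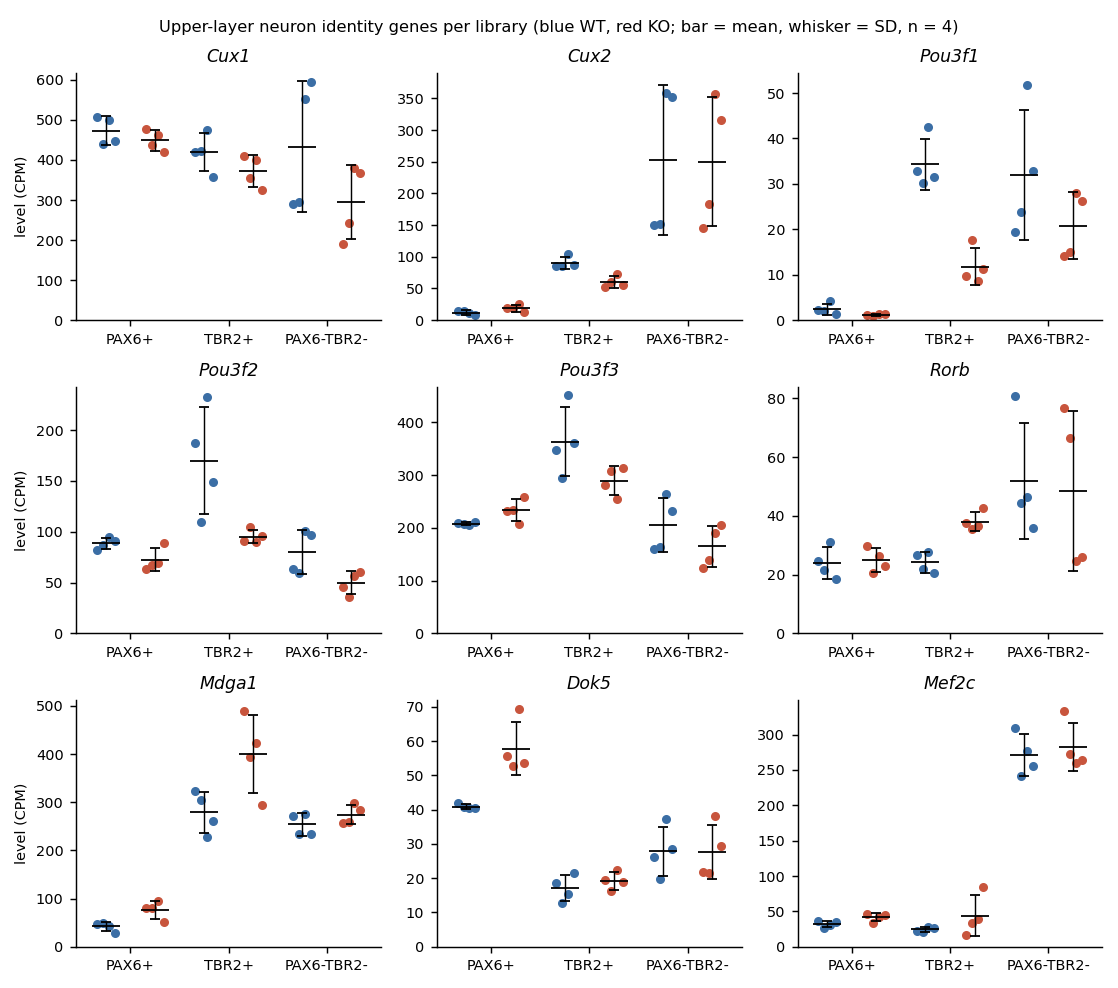
Level (CPM) of each gene in all 24 libraries, WT in blue and KO in red, in 3 sorted populations; the bar is the mean and the whisker the SD (n = 4). Pou3f1 in TBR2+ cells separates the genotypes without overlap (30.2 to 42.5 CPM in WT, 8.52 to 17.7 in KO), while Cux1 and Cux2 in PAX6-TBR2- cells split by replicate within each genotype.

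Of the CUX factors, Cux2 fell in TBR2+ cells and Cux1 did not pass in any population without a replicate block. Cux2 (ENSMUSG00000042589; GRCm38 chromosome 5, 121856366 to 122050102, minus strand) stood at 84.9, 85.5, 104 and 87.7 CPM in WT TBR2+ replicates 1 to 4 and at 52.6, 60.5, 72.7 and 55.5 CPM in KO TBR2+. The groups were separate, and replicate 3 was the highest library in both. The log2 fold change was -0.59 (SE 0.12, adjusted p = 0.017), a 1.51-fold lower level. It was lost without WT replicate 3 (adjusted p = 0.0693), without KO replicate 2, and in a fit of all 24 libraries (adjusted p = 0.411). In PAX6+ cells, where the gene was low, WT libraries held 14.7, 14.9, 10.8 and 7.52 CPM and KO libraries 19.4, 18.6, 25.1 and 12.2 CPM. KO was higher than WT at each replicate number, but the ranges overlapped. The log2 difference was 0.65 (SE 0.23, adjusted p = 0.183), and with the replicate block it passed (0.67, adjusted p = 0.0137), as it did without KO PAX6+ replicate 4 (adjusted p = 0.032).

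The difference between the 2 effects of the knockout on Cux2 was itself tested. The effect in TBR2+ minus the effect in PAX6+ was -1.24 on the log2 scale (SE 0.27, adjusted p = 0.0297), where 0.612% of the 14548 genes tested were called. Cux2 was the only one of the 9 genes that passed this test. The call was lost in 8 of 16 fits that left out 1 library (WT PAX6+ replicate 3 or 4, WT TBR2+ replicate 3, KO PAX6+ replicate 1, 2 or 3, KO TBR2+ replicate 2 or 4), with adjusted p up to 0.0843, and in the fit of all 24 libraries (adjusted p = 0.271). No gene of the 9 passed when the knockout effect in PAX6-TBR2- was set against that in TBR2+ (0.051% of 13725 genes called; 2 of the 9 at an unadjusted p below 0.05) or in PAX6+ (0.775% of 15102; 3 of the 9). DESeq2 and limma-voom also called none of the 9 in these 2 comparisons, whereas with the replicate block Cux2, Pou3f1 and Rorb passed in the former and Cux1, Cux2, Pou3f3 and Mdga1 in the latter. In PAX6-TBR2- cells Cux2 measured 150, 152, 359 and 353 CPM in WT and 145, 183, 358 and 316 CPM in KO. The low and the high libraries carried the same replicate numbers in both genotypes, and the log2 difference of -0.03 had a 95% interval from -0.65 to 0.60.

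Cux1 (ENSMUSG00000029705; chromosome 5, 136248135 to 136567490, minus strand) did not pass in any comparison of genotypes or of WT populations without a replicate block. It ran from 439 to 506 CPM in WT PAX6+ and from 420 to 477 in KO PAX6+, and from 358 to 474 in WT TBR2+ and from 325 to 409 in KO TBR2+. Both pairs of groups overlapped, with log2 differences of -0.07 (adjusted p = 0.863) and -0.17 (adjusted p = 0.58). In PAX6-TBR2- cells it stood at 289, 296, 553 and 594 CPM in WT and at 191, 243, 379 and 367 CPM in KO. KO was lower at each replicate number while the ranges overlapped, and the log2 difference was -0.56 (unadjusted p = 0.0453, adjusted p = 0.749).

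The nuclear receptor Rorb (ENSMUSG00000036192; chromosome 19, 18930605 to 19111196, minus strand) moved in the other direction in TBR2+ cells. WT TBR2+ libraries held 26.8, 21.9, 27.9 and 20.6 CPM, and KO TBR2+ libraries 37.8, 35.4, 36.5 and 42.6 CPM. All 4 KO libraries were above all 4 WT libraries, with means of 38.1 ± 3.16 and 24.3 ± 3.59 CPM (SD, n = 4 each). The log2 fold change was 0.64 (SE 0.13, adjusted p = 0.0196), a 1.56-fold higher level. It was lost without WT replicate 2 (adjusted p = 0.0677), without KO replicate 4, and in the fit of all 24 libraries (adjusted p = 0.349). In PAX6+ cells, Rorb ran from 18.6 to 31.2 CPM in WT and from 20.7 to 29.9 CPM in KO, a log2 difference of 0.06 (adjusted p = 0.947). In PAX6-TBR2- cells the libraries were far apart, at 80.9, 44.5, 46.4 and 35.9 CPM in WT and at 76.8, 66.5, 24.7 and 25.9 CPM in KO. Replicate 1 was the highest of each genotype. The log2 difference of -0.08 had a 95% interval from -0.75 to 0.59.

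Mef2c (ENSMUSG00000005583, chromosome 13, 83504034 to 83667080, plus strand) did not pass in any population in the test described above. Its KO TBR2+ libraries differed widely, at 16.5, 34.1, 39.6 and 84.7 CPM, against 22.1, 21.2, 28.2 and 26.3 CPM in WT TBR2+. KO replicate 1 was below every WT library and KO replicate 4 far above them all. The log2 difference of 0.83 had a 95% interval from 0.17 to 1.48 (adjusted p = 0.318), and leaving out KO replicate 4 took it to 0.28, while without KO replicate 1 it passed (adjusted p = 0.0188). It also passed in TBR2+ with all libraries when no filter on low counts was used. In KO replicate 4 the 15 deep-layer markers summed to 2788 CPM, against 1774 to 2293 in the other KO TBR2+ libraries. In PAX6+ cells Mef2c stood at 36.4, 27.0, 30.5 and 35.7 CPM in WT and at 46.5, 33.9, 42.0 and 44.3 CPM in KO. KO was higher at each replicate number, and 1 KO library fell within the WT range. The log2 difference was 0.37 (adjusted p = 0.197), and the replicate block brought its adjusted p to 0.019. In PAX6-TBR2- cells, where the gene was most abundant, WT libraries averaged 271 ± 29.4 CPM and KO libraries 283 ± 34.1 CPM (SD, n = 4; log2 difference 0.06, 95% interval -0.15 to 0.27).

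Mdga1 (ENSMUSG00000043557; chromosome 17, 29827949 to 29970087, minus strand) rose in PAX6+ cells. It stood at 46.8, 50.0, 43.0 and 28.9 CPM in WT PAX6+ and at 79.5, 79.6, 94.4 and 50.5 CPM in KO PAX6+. Replicate 4 was the lowest library of both genotypes, and the lowest KO library was just above the highest WT library. The log2 fold change was 0.85 (SE 0.18, adjusted p = 0.0119), a 1.80-fold higher level, which was lost without KO replicate 3 (adjusted p = 0.0526). In TBR2+ cells it stood at 323, 305, 228 and 261 CPM in WT and at 490, 394, 424 and 295 CPM in KO. KO was higher at each replicate number but KO replicate 4 fell within the WT range. The log2 difference was 0.52 (SE 0.15, adjusted p = 0.108), and it passed without KO replicate 4 (adjusted p = 0.0169), as it did without the filter on low counts. With the replicate block Mdga1 also passed in TBR2+ (0.51, adjusted p = 0.00348), although TBR2+ libraries did not meet the pairing criterion. In PAX6-TBR2- cells the levels were 254 ± 23.5 CPM (WT) and 274 ± 19.99 CPM (KO; SD, n = 4), a log2 difference of 0.11 (95% interval -0.07 to 0.30). Mdga2, the closest relative of Mdga1, also rose in PAX6+ cells, from 10.8 ± 0.311 to 23.2 ± 6.09 CPM (log2 fold change 1.12, adjusted p = 0.00122).

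Dok5 (ENSMUSG00000027560; chromosome 2, 170731807 to 170879769, plus strand) was the other gene that rose in PAX6+ cells. WT PAX6+ libraries held 41.9, 40.8, 40.3 and 40.5 CPM, and KO PAX6+ libraries 55.5, 52.6, 69.2 and 53.5 CPM. The control libraries were nearly identical and all KO libraries lay above them. The log2 fold change was 0.50 (SE 0.11, adjusted p = 0.018), a 1.42-fold higher level. The call was lost without WT replicate 1, WT replicate 3 (adjusted p = 0.0663) or KO replicate 3, and in the fit of all 24 libraries (adjusted p = 0.12). In TBR2+ cells the ranges of 12.9 to 21.6 CPM in WT and 16.2 to 22.5 CPM in KO overlapped, with a log2 difference of 0.16 (adjusted p = 0.8). In PAX6-TBR2- cells they were 19.8 to 37.1 and 21.4 to 38.0 CPM, with a log2 difference of -0.02 (95% interval -0.42 to 0.39).

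Counts of calls among the 9 genes depended on the libraries used. In PAX6+ cells 5 of 9 passed with the replicate block (Cux2, Mef2c, Mdga1 and Dok5 higher, Pou3f2 lower), when 1045 genes passed in all against 517 without it. Without KO PAX6+ replicate 3 none of the 9 passed, and without KO PAX6+ replicate 4 there were 4. Without WT PAX6+ replicate 3, the library with the high Cajal-Retzius sum, or without WT PAX6+ replicate 1, only Mdga1 passed. In TBR2+ cells 2 of the 9 passed without WT TBR2+ replicate 3 or without KO TBR2+ replicate 2, in both cases Pou3f1 and Rorb. In PAX6-TBR2- cells the count of 0 from edgeR stood beside 3 genes at an unadjusted p below 0.05 (Pou3f2, Pou3f1 and Cux1, all lower). DESeq2 and limma-voom also called 0, while Pou3f2 passed without the filter on low counts, and Pou3f2, Cux1, Pou3f1 and Pou3f3 passed with the replicate block, all lower. Each of these 4 was lower in KO at all 4 replicate numbers, but the libraries of this population did not meet the pairing criterion. Replicate 2 missed it, with a correlation of 0.0795 where over 0.1 was asked. Replicates 1, 3 and 4 stood at 0.299, 0.321 and 0.358, against 0.155 to 0.348 in PAX6+. The labels name no pairing, so whether the block is right for this population was not settled. Markers of other cell types moved with genotype in the PAX6+ and TBR2+ sorts. In PAX6+ cells 2 of 8 intermediate progenitor markers fell (Eomes -0.74 and Insm1 -0.52 on the log2 scale), as did the neuronal marker Dcx (-1.01), while the neuronal marker Syt1 rose (1.36). There Slc1a3, a glutamate transporter of radial glia, also rose (0.43), and Gad2, an interneuron marker, fell (-1.68, from 3.99 to 1.20 CPM). No tested marker of Cajal-Retzius, endothelial, microglial, erythroid or oligodendrocyte precursor cells passed between genotypes in any population. Tested in PAX6+, TBR2+ and PAX6-TBR2- were 2, 6 and 2 of 6 Cajal-Retzius and 4, 2 and 4 of 7 endothelial markers. For the others it was 1, 0 and 2 of 6 microglial, 2, 2 and 2 of 6 erythroid and 2, 0 and 1 of 5 oligodendrocyte precursor markers. The rest had too few reads and could not pass. In TBR2+ cells, however, all 6 Cajal-Retzius markers had a log2 difference above 0, with a median of 0.58 against 0.00 over all genes. In PAX6-TBR2- cells none of the 8 interneuron markers passed, but all 8 had a log2 difference above 0, with a median of 0.39. Their sum there was higher in KO than in WT at each replicate number. The summed intermediate progenitor markers were 362 to 518 CPM in WT PAX6+ and 324 to 431 in KO PAX6+, and 2322 to 2775 and 1906 to 2578 CPM in WT and KO TBR2+. In TBR2+ cells Kif26b was the 1 of these 8 markers that fell (-0.95). Interneuron markers summed to at most 7.88 CPM in the TBR2+ libraries, and the microglial markers C1qa and C1qb were at 0 in all PAX6+ libraries. The part of these markers in the results for the 9 genes was not tested.

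In the controls the 9 genes followed several courses over the 3 populations. Population cannot be told apart from library handling, because library names carry 1 prefix per population. From WT PAX6+ to WT TBR2+ cells, 5 genes were higher: Pou3f1 (log2 difference 3.79), Cux2 (2.94), Mdga1 (2.75), Pou3f2 (0.97) and Pou3f3 (0.84). Dok5 was lower (-1.22), and Cux1, Rorb and Mef2c did not pass. Here 59.8% of 14548 genes tested were called, so 6 of 9 is near the background. From WT TBR2+ to WT PAX6-TBR2- cells, Mef2c (3.47), Cux2 (1.496), Rorb (1.08) and Dok5 (0.71) were higher, Pou3f2 (-1.07) and Pou3f3 (-0.82) lower, and Cux1, Pou3f1 and Mdga1 did not pass. The background there was 50.4% of 13725 genes. Cux2 thus stepped up at both transitions, Pou3f2 and Pou3f3 were highest in TBR2+ cells, and Mef2c passed at the second of these transitions and not at the first. Set directly against WT PAX6+, WT PAX6-TBR2- cells had more Cux2 (4.44), Pou3f1 (3.70), Mef2c (3.10), Mdga1 (2.62) and Rorb (1.11), and less Dok5 (-0.51), where 65.5% of 15102 genes were called. The Dok5 call was lost without WT PAX6-TBR2- replicate 2 (adjusted p = 0.0558).

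**Figure D4:**
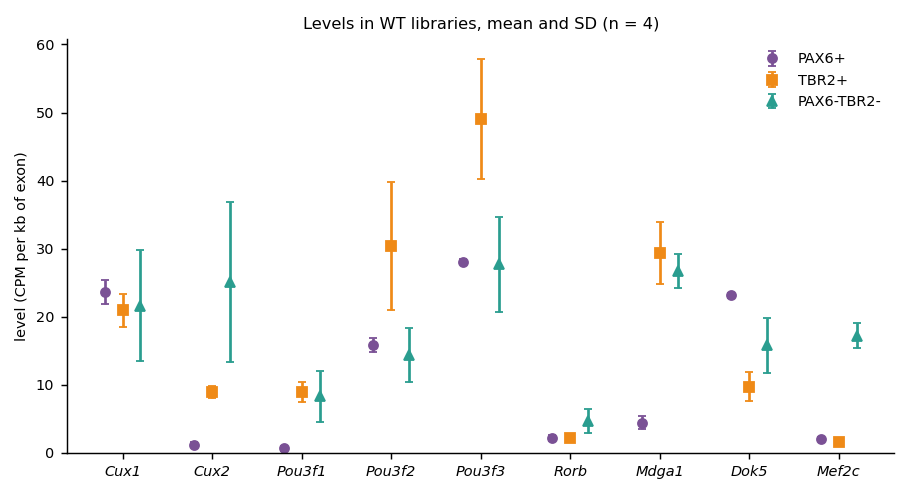
Level in CPM per kilobase of exon in the WT libraries of the 3 populations, as mean and SD (n = 4). Pou3f3 has the highest mean in each population (28.1, 49.1 and 27.7 in PAX6+, TBR2+ and PAX6-TBR2-), and Mef2c is near 2 in the first population and at 17.2 in the last.

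Levels of different genes were compared per kilobase of annotated exon. In WT PAX6+ cells the order of mean levels was Pou3f3 (28.1 CPM per kb), Cux1 (23.6), Dok5 (23.1), Pou3f2 (15.9), Mdga1 (4.43), Rorb (2.17), Mef2c (2.06), Cux2 (1.19) and Pou3f1 (0.636). The ranges of the neighbours Cux1 and Dok5, Rorb and Mef2c, and Cux2 and Pou3f1 overlapped, and those of the other 5 neighbouring pairs did not. In WT TBR2+ cells the order was Pou3f3 (49.1), Pou3f2 (30.4), Mdga1 (29.3), Cux1 (20.9), Dok5 (9.69), Cux2 (8.97), Pou3f1 (8.91), Rorb (2.19) and Mef2c (1.56). Pou3f3 overlapped with Pou3f2, Pou3f2 with Mdga1, Dok5 with Cux2 and Cux2 with Pou3f1, and the other 4 neighbouring pairs did not overlap. In WT PAX6-TBR2- cells the means ran from 27.7 for Pou3f3 over 26.7 for Mdga1, 25.1 for Cux2, 21.6 for Cux1, 17.2 for Mef2c, 15.8 for Dok5, 14.4 for Pou3f2 and 8.30 for Pou3f1 to 4.69 for Rorb. No neighbouring pair there was separate. Cux2 therefore stood near the bottom of the order in PAX6+ cells and among the top 3 in PAX6-TBR2- cells.

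Other genes of layer identity were examined from lists chosen with earlier results of these data known. The list of further upper-layer genes was also shortened after values were known. Of 13 further upper-layer genes, 7 were tested in PAX6+ and in TBR2+ cells and 10 in PAX6-TBR2-. Only Unc5d, a netrin receptor of upper-layer precursors, passed. It fell in PAX6+ from 8.86 ± 2.83 to 3.67 ± 0.983 CPM (log2 fold change -1.26, adjusted p = 0.0124) and in TBR2+ from 468 ± 68.5 to 320 ± 44.4 CPM (-0.55, adjusted p = 0.0254), with n = 4 in each group. The median log2 difference of this list was -0.04, 0.06 and -0.20 in PAX6+, TBR2+ and PAX6-TBR2- cells. Of 15 deep-layer genes tested in TBR2+ cells, 12 had a value above 0 and 3 passed, all of them higher, with a list median of 0.71. The 3 were Sox5 (319 ± 29.8 to 557 ± 97.7 CPM, log2 fold change 0.80, adjusted p = 0.00225), Fezf2 (284 ± 60.8 to 467 ± 70.8 CPM, 0.71, adjusted p = 0.0129) and Nr4a2 (20.1 ± 1.05 to 31.4 ± 6.44 CPM, 0.64, adjusted p = 0.045). Sox5 and Fezf2 are known regulators of deep-layer identity, and Nr4a2 is a nuclear receptor of the deepest neurons. In PAX6+ cells 12 deep-layer genes were tested, of which Tshz2 rose (2.24, from 0.402 to 1.82 CPM) and Foxp2 fell (-0.94, from 61.8 to 32.0 CPM). None of 15 passed in PAX6-TBR2- cells.

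**Figure D5:**
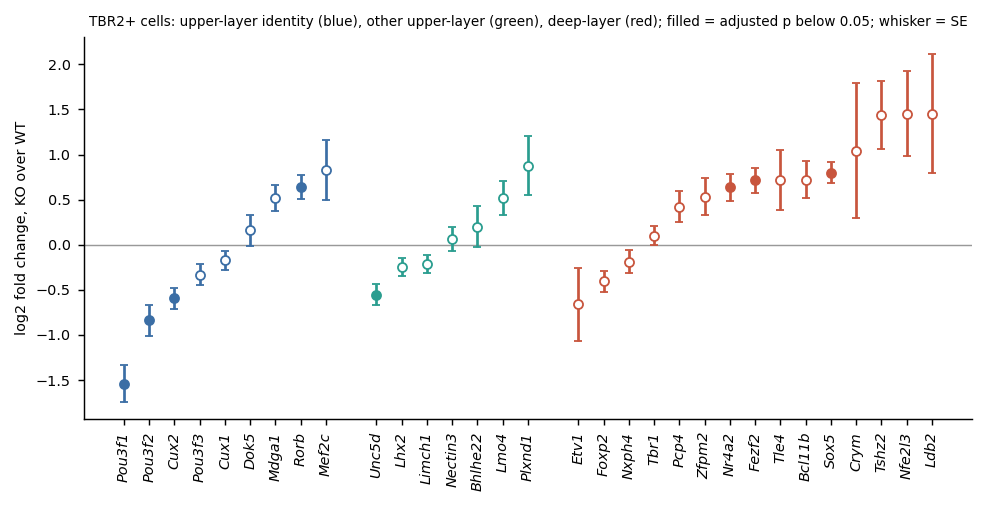
Log2 fold change, KO over WT, in TBR2+ cells for the 9 upper-layer identity genes (blue), the 7 other upper-layer genes tested (green) and the 15 deep-layer genes (red), each with its SE; filled points have an adjusted p below 0.05. The filled deep-layer points are Sox5, Fezf2 and Nr4a2 (0.80, 0.71 and 0.64), and the filled points below 0 are Pou3f1, Pou3f2, Cux2 and Unc5d.

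The genes with the most similar course were sought among 10559 genes over the 24 libraries, by Pearson correlation of log2 CPM. These values describe libraries that fall into 3 populations and share depth and handling within each, so they carry no p. Pou3f2 and Pou3f3 were each other's nearest gene (r = 0.90), the only such pair within the 9. Pou3f2 was next nearest to Nap1l4 (0.88) and Pou3f3 to Eif1ad (0.90). Cux2 was nearest to Bicdl1 (0.98) and Tmem44 (0.97), Pou3f1 to Robo2 (0.97) and Brd1 (0.96), and Mdga1 to Trp53i11 and Auts2 (both 0.98). Mef2c was nearest to Dpy19l1 and Mgat4a (both 0.98), Dok5 to Smad3 (0.94) and Rgma (0.93), Rorb to Adam23 and Pdzd2 (both 0.83), and Cux1 to Tmem11 (0.81) and Ddx47 (0.80). Between the 9 genes, Cux2 also tracked Pou3f1 (0.88) and Mdga1 (0.81), while Pou3f1 and Dok5 ran in opposite directions (-0.75).

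Because Pou3f2 and Pou3f3 moved most alike, the 250 bases before the start of each are printed, from RefSeq on GRCm38.p6, in the direction of transcription. Of the 9 genes, 7 had a sequence in that table, and Pou3f1 and Dok5 had no entry. Capitals mark CCAAT, searched on both strands (ATTGG on the other).
Pou3f2, chr4:22488367-22488616, minus strand: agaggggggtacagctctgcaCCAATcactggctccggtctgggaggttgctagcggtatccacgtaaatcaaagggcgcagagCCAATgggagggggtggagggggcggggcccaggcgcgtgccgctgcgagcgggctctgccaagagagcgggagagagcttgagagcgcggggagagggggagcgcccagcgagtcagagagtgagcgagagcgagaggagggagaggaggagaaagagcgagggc
Pou3f3, chr1:42695518-42695767, plus strand: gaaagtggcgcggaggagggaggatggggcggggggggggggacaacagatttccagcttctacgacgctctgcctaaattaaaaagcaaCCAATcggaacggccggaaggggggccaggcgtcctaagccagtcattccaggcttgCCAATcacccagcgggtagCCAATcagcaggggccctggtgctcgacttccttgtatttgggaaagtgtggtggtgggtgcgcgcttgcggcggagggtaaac
The Pou3f2 window holds 2 such matches and the Pou3f3 window 3. A window of Mef2c, whose levels correlated with Pou3f2 and Pou3f3 at r = -0.62 and -0.64, also held 2. At least 2 were found in 10.1% of the 32851 windows of the same length, and at least 3 in 2.79%. The TATAAA motif was in neither the Pou3f2 nor the Pou3f3 window (12.4% of all windows), nor was the octamer ATGCAAAT known to be bound by POU proteins (1.60% of all windows), both searched on both strands. CANNTG, with N for any base, was also absent from the 2 windows and was found in 66.2% of all windows. A match is only a run of letters, and no binding was measured here.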

How the data were processed

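The data were RNA-seq of 24 libraries, 4 in each of 6 groups, grouped by sample title. Per the labels' protocols, RNA from sorted cells was isolated with a RecoverAll kit, amplified by single primer isothermal amplification (Ovation V2) and made into libraries with Ovation Ultralow V2; no molecular identifiers are named, so counting error is a lower limit. Per the submitters' processing notes, mm10, STAR, featureCounts, cutadapt, FastQC and DESeq2 were used, with no version; the annotation, strandedness and read length behind the counts are not given. The deposited tables hold raw counts per Ensembl gene in 2 lanes per library, summed here, and normalized signal values. Of the deposited signal values, 100% were whole multiples of 1 read (tolerance 1e-06). Reads recovered from them called 517, 232 and 1 genes in PAX6+, TBR2+ and PAX6-TBR2-. In PAX6+ they were the raw counts themselves, so that result could not differ. In the TBR2+ and PAX6-TBR2- groups they held 1.44 to 1.70 times the raw counts, and which sequencing runs they include is not known. Names and positions are from GENCODE M21 (GRCm38); 37693 of 39017 identifiers matched.

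Tests used R 4.3.3 and edgeR 4.0.16: genotypes were compared inside a population, and populations and knockout effects in fits of 2 populations (TMM, filterByExpr, two-sided quasi-likelihood F test, Benjamini-Hochberg over all genes tested; called below 0.05). SE is the log2 fold change divided by the square root of F, and 95% intervals are 1.96 SE. This normal multiplier does not allow for the limited degrees of freedom of the F test, so the intervals are somewhat too narrow. For Mef2c, the knockout effect in PAX6-TBR2- against TBR2+ had an interval from -1.54 to -0.0064 at an unadjusted p of 0.0618 in that test. Alternatives were DESeq2 1.42.0, its size factors in edgeR, limma-voom 3.58.1, no filter, 1 fit of 24 libraries, a replicate block, no mitochondrially encoded genes, recovered reads, and leaving out each library. The test was tried on simulated counts, with 200 genes changed in each comparison of genotypes. In PAX6+, TBR2+ and PAX6-TBR2- it recovered 34%, 32% and 25% of 1.5-fold changes and 71%, 81% and 80% of 2-fold changes. There were 9 false calls in each, among 114, 122 and 114 calls. The changed genes were not drawn from those with the fewest reads, and the simulated libraries had no split by replicate number. With 200 genes changed, an adjusted p below 0.05 was also easier to reach than in PAX6-TBR2-, where the data gave 1 called gene. Recovery in the data may be lower, and a gene that did not pass may still differ by such a fold. Same-numbered WT and KO libraries deviated together in PAX6+ (correlations 0.189, 0.175, 0.155 and 0.348, each over 0.1), so blocked values stand beside those results where a call changed. The other populations did not meet that criterion, although in TBR2+ each WT library correlated best with the KO library of its own number. Libraries of a group differed by more than sampling noise, so none was merged.

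The 9 genes, the other lists and the tests were chosen with earlier results of these data known. Genes other than the 9 were named by rule: from each list up to 5 that passed per KO comparison, by adjusted p; relatives that passed; for likeness the 2 nearest genes with a mean of at least 5 CPM (prior count 1); overlapping genes; and Prdm16, Pax6 and Eomes. Pou3f4 falls outside it and was chosen after its values were seen. The list of other upper-layer genes was reduced by 1 gene that is not reported here, after values were known.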

Additional observations from a re-analysis of the deposited data

Results flagged for a closer look

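A library was flagged where it lay far from the other 3 of its group by Dixon's criterion, which chance meets in about 1 of 20 groups; 54 combinations of gene and group were examined and 2 met it. Cux2 in WT TBR2+ replicate 3 stood at 103.8 CPM, against 84.94, 85.46 and 87.72 CPM in the other libraries of that group. Mef2c in KO PAX6-TBR2- replicate 1 stood at 333.2 CPM, against 260.4, 264.3 and 272.7 CPM. The Cux2 difference between the knockout effect in TBR2+ and in PAX6+ cells, -1.24 on the log2 scale, was flagged because the interaction test between the populations passed.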

How the results depend on the processing

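Of 25 calls for the 9 genes over the 9 comparisons, all kept direction and call with DESeq2, its size factors in edgeR, limma-voom, no filter, the replicate block and without mitochondrially encoded genes. The 6 calls also made with recovered reads kept both as well. Among those 6, the calls of Mdga1 and Dok5 in PAX6+ could not change, because the recovered PAX6+ reads equal the raw counts. In 1 fit of 24 libraries 4 were lost, and 21 of 352 were lost over the fits that left out 1 library. The counts of the 9 genes that passed changed as follows. In PAX6+ there were 1 in 1 fit of 24 libraries and 5 with the replicate block, and 0 to 4 when 1 library was left out. In TBR2+ there were 7 without the filter, with Mdga1 and Mef2c added as higher and Pou3f3 as lower. There were 2 in 1 fit of 24 libraries, Mdga1 was added with the block (adjusted p = 0.00348), and there were 2 to 5 when 1 library was left out. In PAX6-TBR2- there were 1 without the filter (Pou3f2) and 4 with the replicate block (adjusted p = 0.000147 for Pou3f2, 0.000323 for Cux1, 0.0156 for Pou3f1 and 0.0348 for Pou3f3), all lower. For the knockout effect in TBR2+ against PAX6+ there were 0 in 1 fit of 24 libraries and 0 to 1 when 1 library was left out. For PAX6-TBR2- against TBR2+ there were 3 with the replicate block. For PAX6-TBR2- against PAX6+ there were 1 without the filter, 4 with the block and 0 to 1 when 1 library was left out. The replicate block raised the number of genes called to 1045 in PAX6+, 720 in TBR2+ (from 223) and 153 in PAX6-TBR2- (from 1), and to 323, 210 and 332 for the 3 differences of the knockout effect in the order given (from 89, 7 and 117). Same-numbered libraries correlated best with each other for all 4 numbers in TBR2+ (0.41, 0.059, 0.046 and 0.36) and for 3 of 4 in PAX6-TBR2- (0.299, 0.0795, 0.321 and 0.358), which is a hint from the data and not from the design. The filter set the count in TBR2+ (728 without it), PAX6-TBR2- (38) and the 3 differences (329, 126 and 219). DESeq2 called 363 genes in TBR2+, 25 in PAX6-TBR2-, and 160 and 28 for the knockout effect in TBR2+ against PAX6+ and in PAX6-TBR2- against TBR2+; 1 fit of 24 libraries called 6 in PAX6-TBR2-. The cause was not tested. Leaving out 1 library gave 121 to 420 genes in TBR2+, 1 to 3 in PAX6-TBR2-, 71 to 137 for the effect in TBR2+ against PAX6+ and 3 to 10 for PAX6-TBR2- against TBR2+.

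Reversals concerned only values that did not pass. KO against WT in PAX6-TBR2-, Cux2 moved to 0.0079 with the replicate block. WT TBR2+ against WT PAX6+, Rorb moved to -0.0083 without the filter, and WT PAX6-TBR2- against WT TBR2+, Cux1 moved to -0.0204 with the replicate block. WT PAX6-TBR2- against WT PAX6+, Pou3f3 moved to -0.0042 without the filter, -0.0167 in 1 fit of 24 libraries, -0.0235 with the block and -0.0034 without mitochondrially encoded genes. For the effect in PAX6-TBR2- against TBR2+, Pou3f3 moved to -0.0192 with limma-voom and -0.005 without the filter. When 1 library was left out, these log2 values ran through 0: KO against WT, Rorb in PAX6+ from -0.045 to 0.2019, and in PAX6-TBR2- Cux2 from -0.2491 to 0.1831, Rorb from -0.3983 to 0.2037, Dok5 from -0.2074 to 0.1429 and Mef2c from -0.0281 to 0.1323. Between WT TBR2+ and PAX6+ Rorb ran from -0.0772 to 0.1821; between WT PAX6-TBR2- and TBR2+ Cux1 from -0.1412 to 0.1815 and Pou3f1 from -0.4231 to 0.0571; between WT PAX6-TBR2- and PAX6+ Cux1 from -0.2933 to 0.0701, Pou3f2 from -0.2186 to 0.0301 and Pou3f3 from -0.1187 to 0.1269. For the knockout effect, TBR2+ against PAX6+, Mef2c, at 0.46 with all libraries, ran from -0.0809 (without KO TBR2+ replicate 4) to 0.7311; PAX6-TBR2- against TBR2+, Pou3f2 from -0.0506 to 0.3003 and Pou3f3 from -0.1097 to 0.1632; PAX6-TBR2- against PAX6+, Rorb from -0.4421 to 0.1474. Depth limits Pou3f1 in PAX6+ cells most, at 10 to 66 counts per library.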
